A study of Mus musculus with 8 samples.

Results

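The 74 genes described here encode mitochondrial ribosomal proteins. They are all genes whose symbol starts with Mrpl or Mrps and a digit and that had at least 1 probe set annotated to that gene alone, out of 12393 genes tested on the array. Each gene was represented by its probe set of highest mean value over the 8 mice. The values come from the hippocampus of 12-week-old male SCID mice, in which mature lymphocytes of the B and T lineages are missing, and each array holds the RNA of 1 mouse. FTY720 (fingolimod, a sphingosine analogue that acts on sphingosine-1-phosphate receptors) was given by mouth at 1 mg/kg on 3 days to 4 mice, and saline to 4 vehicle mice. Every mouse was trained in contextual fear conditioning, and tissue was collected 1 hour after memory consolidation had been tested, 17 hours from the last dose. Each mouse is named by its treatment with its replicate number, FTY720 1, 4, 5 and 6 and vehicle 13 to 16.

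Mitochondria carry a small genome of their own, and its messages, which code for core subunits of the respiratory chain and of ATP synthase, are translated by a ribosome inside the organelle. The RNAs of that ribosome are made in the mitochondrion, while its proteins are encoded in the nucleus, made in the cytosol and imported. Many of these proteins have a counterpart in the bacterial ribosome, and others are found in mitochondria alone. In neurons this translation system feeds the respiratory chain, on which synaptic work depends.

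Of the 74 members, 49 belong to the large subunit and 24 to the small subunit. Mrps30 and Mrps18a are counted with the large subunit, where their proteins sit in spite of their names. Mrps36 is kept apart, since its protein is now known as a subunit of the 2-oxoglutarate dehydrogenase complex. RefSeq lists 78 protein-coding genes of these names in mouse, and Mrpl30, Mrpl53, Mrps27 and Mrps10 were not tested here. It also lists 6 pseudogenes named after Mrpl23, Mrpl48, Mrps36 and Mrpl27, and their transcripts, where made, may reach the probes of those genes.

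Promoter sequences bear on the family because transcription starts of these genes often lie close to a neighbour's start. The first 3 sequences are the whole stretch between the starts of such pairs, chosen because 1 pair holds 2 members, 1 pairs a ribosomal protein with a mitochondrial tRNA synthetase, and 1 belongs to a member whose groups did not overlap. The last 2 are the 250 bases before the starts of Mrps23 and Mrpl52, the members of smallest unadjusted p in each direction. Sequences are from RefSeq (GRCm38.p6), written 5′ to 3′ on the strand named, with matches to the ETS core CCGGAAG, on either strand, in capitals. The capitals cover the printed bases only. The wider window described below holds 1 match for Mrps12 and 1 for Mrps23, outside the printed bases, and 2 for Mrpl52, 1 of them printed.
Mrps11 and Mrpl46, chr7:78783090-78783130, plus strand: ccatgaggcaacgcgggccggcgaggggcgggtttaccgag
Mrps12 and Sars2, chr7:28741822-28741967, minus strand: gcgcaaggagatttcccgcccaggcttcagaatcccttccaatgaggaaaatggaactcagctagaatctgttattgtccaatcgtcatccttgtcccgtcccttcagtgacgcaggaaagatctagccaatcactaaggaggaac
Mrps18c and Helq, chr5:100798601-100798758, plus strand: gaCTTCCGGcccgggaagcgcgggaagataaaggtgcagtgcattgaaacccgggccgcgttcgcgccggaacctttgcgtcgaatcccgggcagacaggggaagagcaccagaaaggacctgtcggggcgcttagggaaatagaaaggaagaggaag
Mrps23, chr11:88204138-88204387, plus strand: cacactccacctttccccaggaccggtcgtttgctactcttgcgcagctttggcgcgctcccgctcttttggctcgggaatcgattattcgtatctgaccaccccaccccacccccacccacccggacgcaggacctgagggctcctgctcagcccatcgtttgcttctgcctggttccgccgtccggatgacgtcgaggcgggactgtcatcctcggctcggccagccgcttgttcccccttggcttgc
Mrpl52, chr14:54426659-54426908, plus strand: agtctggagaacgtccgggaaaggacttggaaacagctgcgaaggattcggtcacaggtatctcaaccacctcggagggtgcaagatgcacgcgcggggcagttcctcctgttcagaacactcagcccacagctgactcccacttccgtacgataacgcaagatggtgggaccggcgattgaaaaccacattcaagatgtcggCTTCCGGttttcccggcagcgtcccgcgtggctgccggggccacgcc

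Promoter windows of 250 bases before and 50 after the start were found for 65 members, in 71 windows since a few genes had several starts. The ETS core, the motif that GABP (nuclear respiratory factor 2) reads, was in 33.8% of member windows, against 14.0% of the windows of all genes tested. An NRF1 match (GCGC, 2 bases of any kind, GCGC) was in 18.3% against 10.6%, a YY1 match (AANATGGCG) in 14.1% against 3.9%, and an Sp1 box (GGGCGG) in 54.9% against 55.4%. Both strands were searched, and a match describes these letters only. Another gene started on the opposite strand within 1000 bases for 24 of the 65 members (36.9%), against 1644 of 9887 genes tested (16.6%). The windows of cytosolic ribosomal protein genes held the ETS core in 42.9% and those of nuclear respiratory chain genes in 25%. No test was made of these shares.

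Most members gave a bright signal. The level of 73 of the 74 members was above 7.17, the median of all genes on the log2 scale. The standard deviation between mice of 1 group had a median of 0.065 over the members, against 0.099 over all genes and 0.082 over genes above the median level. Mrps18c (0.0235) and Mrps7 (0.0244) varied least, and Mrps6 (0.14) and Mrpl45 (0.13) most. As bulk tissue was measured, fewer cells of a type and less RNA per cell cannot be told apart. Of the hippocampus markers, Neurod6 (mean 10.5), Zbtb20 (9.90) and Wfs1 (9.87) were bright, Prox1, a marker of dentate granule cells, was dim at 3.29, and C1ql2 and Spink8 were not tested.

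Vehicle 15 and vehicle 16 stood apart from the other arrays. The median correlation of vehicle 15 with the others was the lowest (0.994), and it had the highest values of thalamus and striatum markers such as Tcf7l2 (9.23) and Penk (11.4). Vehicle 16 had the steepest loss of 5′ signal, with a Gapdh 5′ minus 3′ difference of -1.46 on the log2 scale where the other 7 arrays lay between -1.18 and -0.80. Group means of that difference were -0.95 ± 0.14 in FTY720 mice and -1.20 ± 0.18 in vehicle mice (SD, n = 4 each).

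The comparison of FTY720 with vehicle addressed whether hippocampal transcripts of the mitochondrial ribosome differed with the drug. In the family as a whole the values of the groups lay close together. Of the 74 members, 46 (62.2%) had a log2 difference (FTY720 minus vehicle) above 0, against 53.5% of all genes tested. The median difference was 0.021, against 0.0072 over all genes, and the quartiles of the members were -0.028 and 0.066. The extremes were Mrpl45 at 0.17 and Mrpl52 at -0.16. No list test was made, and these values describe the family only.

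No member passed an adjusted p of 0.05 in limma with Benjamini-Hochberg adjustment over 12393 genes, and neither did any other gene (0%). The lowest adjusted p was 0.717 among members and 0.536 among all genes. At an unadjusted p under 0.05 there were 2 members with higher values in FTY720 mice, Mrps23 and Mrpl38, where 3.86% of all genes were so placed, and 1 with lower values, Mrpl52, where 2.78% were. Together these are 4.05% of the members, below the 6.64% of all genes. Values of the groups did not overlap in 3 members that were higher in every FTY720 mouse (Mrps23, Mrps30 and Mrps7; 2.72% of all genes) and in 1 that was lower (Mrps18c; 1.78% of all genes). That is 5.41% of the members, near the background of 4.49%.

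The intervals of the differences were narrow. The 95% interval of the difference covered 0 for 71 of the 74 members. For 73 members (98.6%) the whole interval lay within 0.32 of 0 on the log2 scale, which held for 83.3% of all genes and for 86.9% of genes above the median level. The exception was Mrpl45, whose upper bound was 0.36, and the lowest bound of any member was -0.30, for Mrpl52. The estimates themselves were within 1.1-fold for 71 of the 74.

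**Figure D1:**
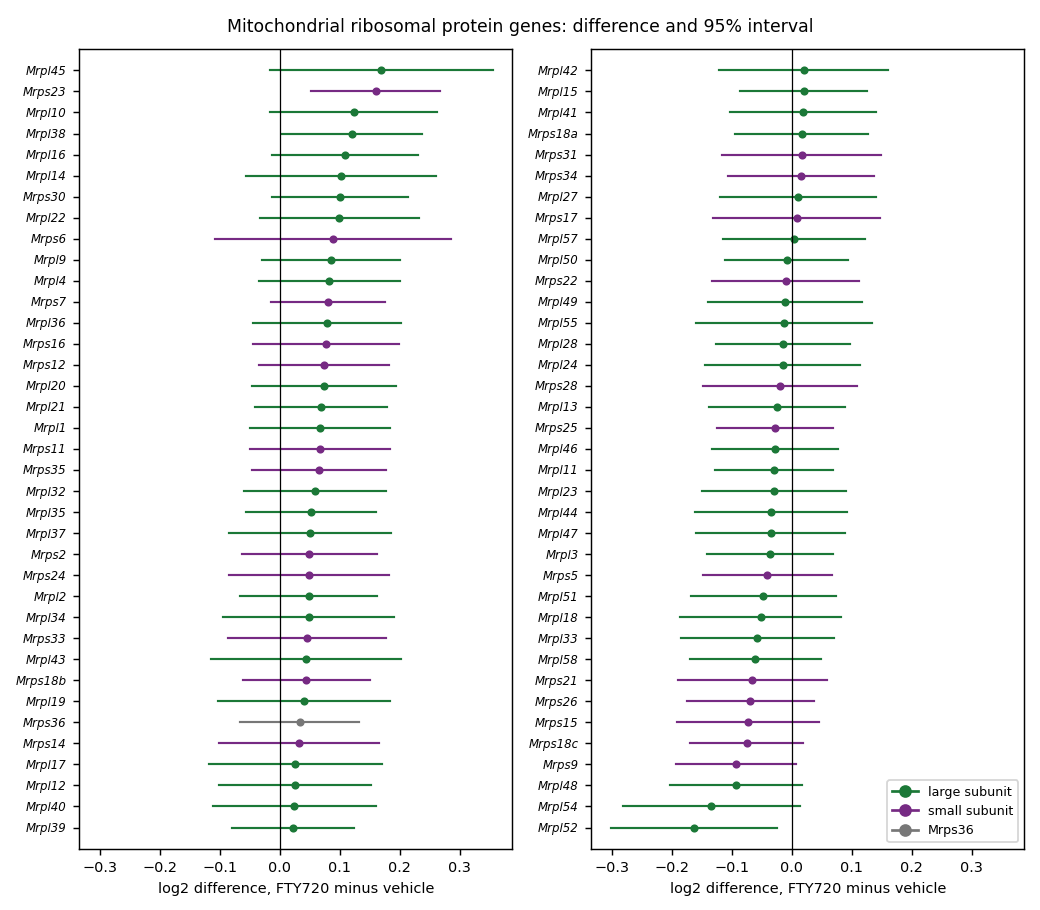
Log2 difference (FTY720 minus vehicle, x axis) of the 74 mitochondrial ribosomal protein genes, with its 95% interval from limma (n = 4 mice each), ordered from the highest at top left to the lowest at bottom right and coloured by subunit. The intervals of Mrps23, Mrpl38 and Mrpl52 are the 3 that leave out 0.

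Large-subunit members with a counterpart in bacteria were 29, and 19 of them had a difference above 0 (median 0.041). Mrpl16, which lies near the peptidyl transferase centre, had 8.99, 8.98, 9.07 and 8.95 on the log2 scale in FTY720 mice and 8.89, 8.996, 8.84 and 8.83 in vehicle mice. Vehicle 14 was the 1 vehicle mouse among the FTY720 values, and the difference was 0.11 (SE 0.05, unadjusted p = 0.0748 in limma) and 0.052 without vehicle 15 and 16. Mrpl10, the base of the stalk that recruits translation factors, had 8.46, 8.33, 8.38 and 8.36 in FTY720 mice and 8.37, 8.23, 8.31 and 8.12 in vehicle mice. The groups overlapped through vehicle 13, and the difference of 0.12 was 0.077 without vehicle 16 and 0.067 with the Gapdh difference as a covariate. Mrpl22, whose bacterial counterpart lines the tunnel through which the new chain leaves, had a difference of 0.10, which was 0.065 without vehicle 16 and 0.037 with that covariate. Mrpl12, the stalk protein, which is also known to bind the mitochondrial RNA polymerase, had 9.28, 9.42, 9.43 and 9.38 in FTY720 mice and 9.35, 9.45, 9.34 and 9.27 in vehicle mice, a difference of 0.025 that was -0.0018 without vehicle 16 and -0.022 without both arrays.

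Large-subunit members with no bacterial counterpart were 20, with 11 above 0 (median 0.0098), and they held the extremes of the family. Mrpl45, a protein at the tunnel exit that anchors the ribosome to the inner membrane, had 8.13, 8.43, 8.18 and 8.06 in FTY720 mice and 8.09, 8.09, 8.05 and 7.90 in vehicle mice. FTY720 4 stood above the other 7 mice and vehicle 16 below them, and the difference of 0.17 (SE 0.08, unadjusted p = 0.0693 in limma) was 0.094 without FTY720 4, 0.11 without vehicle 15 and 16, and 0.044 with the Gapdh covariate. Mrpl38, a protein of the central protuberance, had 7.41, 7.38, 7.37 and 7.50 in FTY720 mice and 7.31, 7.37, 7.24 and 7.25 in vehicle mice. FTY720 6 was highest and vehicle 14 lay just above FTY720 5, with a difference of 0.12 (SE 0.05, unadjusted p = 0.0441 in limma) and 0.073 without vehicle 15 and 16. Its chosen probe set has the suffix s, which marks probes that can match other genes, and its other probe set, dimmer and with no suffix, gave -0.086.

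Mrps30, a large-subunit protein also known as a programmed cell death protein, had 8.53, 8.54, 8.62 and 8.51 in FTY720 mice and 8.50, 8.49, 8.45 and 8.36 in vehicle mice. The groups did not overlap, though FTY720 6 and vehicle 13 lay close to each other, and the difference was 0.10 (SE 0.05, unadjusted p = 0.0762 in limma) and 0.056 without vehicle 15 and 16. Mrpl52 lay on the other side, with 9.82, 9.72, 9.78 and 9.87 in FTY720 mice and 9.85, 9.94, 10.1 and 9.95 in vehicle mice. Vehicle 15 was highest, and vehicle 13 lay below FTY720 6. Its difference of -0.16 (SE 0.06, unadjusted p = 0.0259 in limma) was -0.098 without vehicle 15 and 16.

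Mrpl54 and Mrpl48, both mitochondria-specific, had differences of -0.13 and -0.09. The first was -0.078 without vehicle 15, the highest mouse at 7.69, and -0.063 without vehicle 15 and 16. Mrpl58, a peptidyl-tRNA hydrolase built into the large subunit that can free stalled ribosomes, had a difference of -0.06, and -0.037 without FTY720 6. Mrps18a, a mammalian relative of bacterial S18, had 0.016 with overlapping groups, and -0.013 without FTY720 4.

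The small subunit had 15 of 24 members above 0 (median 0.024). Those with a bacterial counterpart had 9 of 15 above 0 (median 0.032), and the mitochondria-specific ones 6 of 9 (median 0.016). Mrps23, of the second kind, had the smallest unadjusted p of the family. Its values were 7.92, 7.99, 7.98 and 7.97 in FTY720 mice and 7.74, 7.89, 7.80 and 7.80 in vehicle mice. All FTY720 mice were above all vehicle mice, and the difference was 0.16 (SE 0.05, 95% interval 0.05 to 0.27, unadjusted p = 0.00801 and adjusted p = 0.717 in limma). The two-sided exact permutation p was 0.0286, the smallest that the 70 assignments of the mice allow. Any gene whose groups do not overlap has that value, so it adds nothing to the lack of overlap.

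Mrps7, a protein of the head of the small subunit, had 8.64, 8.70, 8.68 and 8.67 in FTY720 mice and 8.56, 8.59, 8.62 and 8.59 in vehicle mice. The groups did not overlap, and the difference was 0.08 (SE 0.04, unadjusted p = 0.0876 in limma). It lay between 0.065 and 0.093 under the alternatives that could change it. The removal of dim genes and the settings of the variance cannot change a difference in any gene. Mrps7 has 1 probe set, of suffix a, so the mean of probe sets was the same value. With probe sets of no suffix only, the gene was absent. Mrps18c, the relative of S18 that holds its place in the small subunit, had 9.81, 9.84, 9.86 and 9.79 in FTY720 mice and 9.90, 9.89, 9.90 and 9.90 in vehicle mice. The vehicle mice were nearly equal (SD 0.008) and all lay above the FTY720 mice, with a difference of -0.0755 (SE 0.04, unadjusted p = 0.104 in limma).

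Mrps9, whose bacterial counterpart reaches the peptidyl-tRNA site, had 9.13, 9.16, 9.08 and 9.11 in FTY720 mice and 9.16, 9.22, 9.24 and 9.23 in vehicle mice. Vehicle 13 equalled FTY720 4 and the rest did not overlap, with a difference of -0.09. Of its 3 dimmer probe sets, 1 gave -0.058 and the others 0.034 and 0.013. Mrps12, the protein of the decoding centre, had a difference of 0.07, which was 0.043 without vehicle 15 and 16 and 0.013 with the Gapdh covariate. The only probe set of Mrps12 has the suffix s. Sars2, its promoter neighbour, was dim at a mean level of 4.77 and had a difference of 0.12, and 0.062 without vehicle 15. Mrps26 and Mrps15 had -0.07 each, with overlapping groups, and Mrps15 had -0.045 without vehicle 15 and -0.027 without both arrays. Mrps18b had 0.04, which was 0.017 without vehicle 15 and 0.0092 without both.

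The other 52 members had differences between -0.066 and 0.10, with 33 of them above 0 and no unadjusted p below 0.128 in limma. The members at the bounds of that range were named after their values were seen. Mrpl14, a large-subunit protein with a bacterial counterpart, had 8.21, 8.33, 8.31 and 8.25 in FTY720 mice and 8.25, 8.31, 8.11 and 8.01 in vehicle mice, so vehicle 15 and 16 were below the rest. Mrps21, of the small subunit, had 9.06, 9.11, 9.11 and 9.10 in FTY720 mice and 9.04, 9.13, 9.21 and 9.26 in vehicle mice, so the same 2 mice were above the rest. Without those mice the difference of Mrpl14 was -0.0081 and that of Mrps21 was 0.0079. Mrps36, the dehydrogenase subunit, had 8.96, 9.01, 8.98 and 8.97 in FTY720 mice and 8.91, 9.002, 8.92 and 8.95 in vehicle mice, a difference of 0.03.

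**Figure D2:**
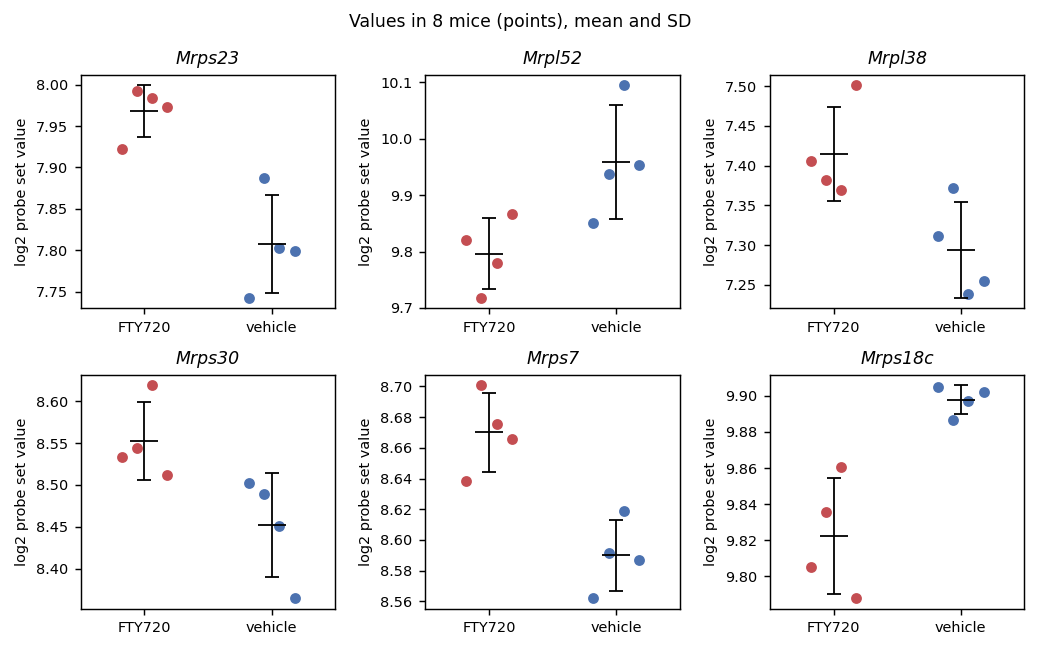
Log2 probe set values of Mrps23, Mrpl52, Mrpl38, Mrps30, Mrps7 and Mrps18c in each mouse (points), with the group mean and SD (bars, n = 4 each) and a separate y axis for each gene. The groups do not overlap in Mrps23, Mrps30, Mrps7 and Mrps18c.

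The level of the family as a whole differed between mice of the same group. The mean deviation of the members from their own means was -0.019, 0.030, 0.041 and -0.015 on the log2 scale in FTY720 mice and -0.015, 0.020, 0.022 and -0.063 in vehicle mice. The group means were 0.0091 ± 0.031 in FTY720 mice and -0.0091 ± 0.040 in vehicle mice (SD, n = 4 each), so their difference was smaller than the spread within either group. FTY720 5 was the highest mouse and vehicle 16 the lowest.

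Vehicle 16 had the lowest value of the 8 mice in 38 of 74 members (51.4%), against 16.9% of all genes tested. It was below the members' own mean in 59 of them (79.7%), with a median deviation of -0.085. Both subunits shared this, with 26 of 49 large-subunit and 12 of 24 small-subunit members at their lowest there. In Mrps6, the member of largest dip, it had 7.999 where the other mice lay between 8.22 and 8.45. Mrpl48, Mrps26, Mrpl3, Mrpl33, Mrps21 and Mrpl44 were instead at their highest in vehicle 16. The highest values were mostly in FTY720 5 (18 members), vehicle 15 (18) and FTY720 4 (16). Mrps6, Mrpl3, Mrpl33, Mrps21 and Mrpl44 were named after their values were seen.

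The sign of the family median changed without this 1 array. Without vehicle 16, 36 members were above 0 and 38 below, with a median of -0.0033 against 0.0075 over all genes. Without vehicle 15 there were 50 above and 24 below (median 0.032), where 51.1% of all genes were above 0. Without both there were 41 above and 33 below (median 0.0086), where 50.1% of all genes were above. With that Gapdh difference added to the fit as a covariate, 33 were above and 41 below (median -0.012), where 53.1% of all genes were above, and no member had an unadjusted p under 0.05, where 505 of all genes had. What part the 5′ signal of vehicle 16 has in its low values was not tested.

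**Figure D3:**
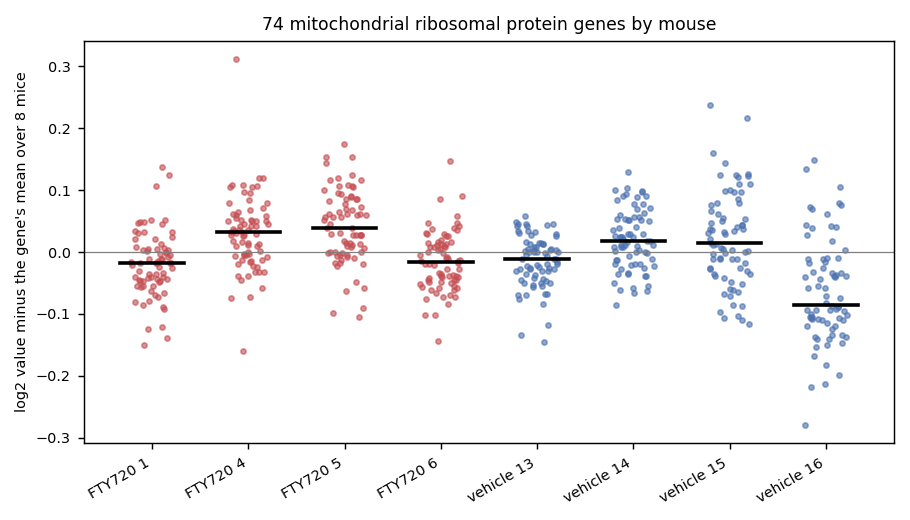
Log2 value minus the gene's mean over 8 mice (y axis) for the 74 members (points) in each mouse (x axis), with the median as a bar. The median of vehicle 16 lies at -0.085, while those of the other 7 mice lie between -0.017 and 0.039.

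The cytosolic ribosome gave another pattern by mouse, and the respiratory chain a partly shared one. Of 41 cytosolic ribosomal protein genes, 5 had a difference above 0 and 36 below (median -0.037), and vehicle 16 was the highest mouse in 18 (43.9%) and the lowest in 2 (4.9%). The median was below 0 under all 19 alternatives, from -0.053 to -0.0092, though those that alter only the variance cannot change it. Rpl37 (-0.23, and -0.11 without vehicle 15 and 16) and Rps20 had the smallest unadjusted p among them, and Rps20 had -0.10 by its chosen probe set, of suffix x, and 0.08 by the brightest one with no suffix. Of 70 nuclear genes of the respiratory chain and ATP synthase, 34 were above 0 (median -0.0008, and 0.0001 after quantile normalization). Their median deviation had the same sign as that of the members in every mouse. Vehicle 16 was lowest in 28.6% of them, against 16.9% of all genes, with a median deviation of -0.009 against -0.085 in the members. Ndufb10 of complex I was at -0.12 and Sdhc of complex II at 0.10. The difference between the families was not tested.

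**Figure D4:**
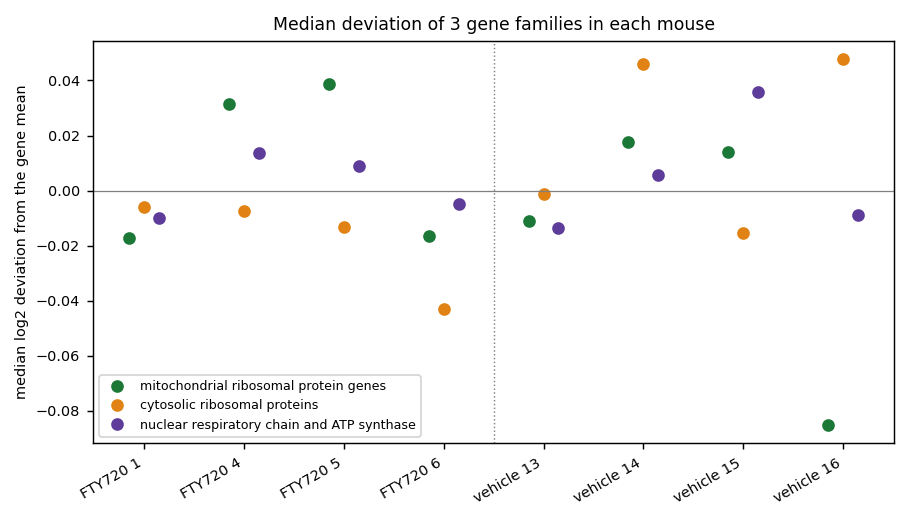
Median log2 deviation from the gene's own mean (y axis) in each mouse (x axis) for 74 mitochondrial ribosomal protein, 41 cytosolic ribosomal protein and 70 respiratory chain genes. In vehicle 16 the medians are -0.085, 0.048 and -0.009.

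Other genes that make or serve the mitochondrial ribosome also held no gene past adjustment. Among 13 tRNA synthetases, 9 were above 0 (median 0.044). Pars2, which charges mitochondrial proline tRNA, had 6.89, 6.75, 6.85 and 6.81 in FTY720 mice and 6.65, 6.73, 6.59 and 6.48 in vehicle mice. Its groups did not overlap, and its difference of 0.21 (unadjusted p = 0.00674 in limma) was 0.14 without vehicle 15 and 16. Among 19 assembly and rRNA modification genes, 12 were above 0 (median 0.038). Those of smallest unadjusted p were Mettl17 (0.14, and 0.051 as the mean of its probe sets), a small-subunit assembly factor without overlap, and Mtg2 (0.13), a GTPase of large-subunit assembly. Of 8 translation factors, 4 were above 0 (median -0.0026). Mrrf, the recycling factor, had 0.07, and 0.038 without vehicle 16. Tmem70, better known in ATP synthase assembly, had 0.06.

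Of the 4 ribosomal proteins with other names, 3 were above 0, with Chchd1 at -0.04 (-0.026 without vehicle 15) and Gadd45gip1 at 0.03 (0.0037 without vehicle 16). Mitochondrial transcription and genome maintenance had 9 of 13 genes above 0 (median 0.023). Those of smallest unadjusted p were the transcription factor Tfb2m (0.09, no overlap) and the helicase Supv3l1 (0.05, and 0.013 without vehicle 15 and 16). Regulators of mitochondrial biogenesis had 5 of 13 above 0, with the nuclear receptor Esrrg at -0.15 and the transcription factor Nrf1 at 0.10, which were -0.071 and 0.17 without vehicle 15 and 16. Of 21 mitochondrial stress response genes, 6 were above 0, with the serine synthesis enzymes Phgdh at -0.22 and Psat1 at -0.17, the second at -0.097 without vehicle 16.

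Markers of other cells and regions were examined in the same mice. All 7 oligodendrocyte markers had lower values in FTY720 mice, each at an unadjusted p under 0.05, where 2.78% of all genes were so placed. Among them were Ugt8a (-0.52) and Mog (-0.54), which were at -0.32 and -0.31 with the Gapdh covariate. The summed level of the 7 markers ranged from 69.56 to 71.47 in FTY720 mice and from 71.55 to 74.74 in vehicle mice. All 5 thalamus markers were also lower, with sums of 28.80 to 29.93 in FTY720 mice and 30.55 to 38.13 in vehicle mice, and Tcf7l2 at -1.44 and Ramp3 at -0.74. Without vehicle 15 Tcf7l2 was at -0.87, and without vehicle 15 and 16 Ramp3 was at -0.43. The 3 striatum markers (Penk -1.14, Ppp1r1b -0.42) and 3 choroid plexus markers (Folr1 -0.78, Ttr -0.69) had lower values with overlapping sums. Penk was at -0.61 and Ppp1r1b at -0.15 without vehicle 15, and at -0.095 and 0.031 without vehicle 15 and 16. Folr1 was at -0.33 without vehicle 15, and Ttr at -0.25 without FTY720 4. Neuron (Map2 0.42, Syt1 0.12), astrocyte (Aqp4 -0.23, Slc1a2 0.19), microglia (Aif1 -0.17, P2ry12 -0.08), endothelium (Cldn5 -0.21, Tek -0.21) and hippocampus markers (Prox1 0.18, Neurod6 0.08) had members on both sides of 0. Without vehicle 15 Syt1 was at 0.074 and Slc1a2 at 0.099, and without vehicle 15 and 16 Map2 was at 0.25, P2ry12 at -0.17 and Neurod6 at -0.062. Their part in the members' values was not tested.

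Probe sets of the same gene often gave different signs. In 33 members with several probe sets, up to 7 for Mrpl15, the 53 other probe sets had the sign of the chosen one in 27 cases and the opposite sign in 26. The others are dimmer than the chosen one by rule, with mean levels as low as 3.27 for a probe set of Mrpl15. The name of the chosen probe set ended in x or s, suffixes for probes that can match other genes, in 8 members. It ended in a, a suffix for several transcripts of the same gene, in 21. Mrpl17, a protein near the tunnel exit, had a difference of 0.026 by its chosen probe set (mean level 8.44). Its other probe set (mean level 5.36) gave -0.16 (unadjusted p = 0.0444 in limma). Mrpl51 had -0.05 by its chosen probe set (mean level 9.81), and -0.014 without vehicle 15. Its other probe sets gave 0.12 (mean level 6.88) and 0.15 (mean level 6.19, unadjusted p = 0.0255 in limma). Mrpl13, named after its values were seen, had -0.03 by its chosen probe set (mean level 9.81). The 2 further probe sets gave larger differences of the same sign. These were -0.21 (mean level 8.97, unadjusted p = 0.018 in limma) and -0.13 (mean level 6.29, unadjusted p = 0.0448 in limma).

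Members were also set beside the genes that share their promoter region. Among 17 members with a neighbour tested, the signs were equal in 8. Mrps11 and Mrpl46, whose starts are 42 bases apart, had 0.07 and -0.03. They are each other's neighbour, so both count among the 17. The 24 members with an ETS core had 13 differences above 0 (median 0.0069) and the 41 without had 27 (median 0.025), a difference that was not tested.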

How the data were processed

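Per the labels, 1 Affymetrix 3′ array per mouse was hybridised from 100 ng of RNA. The authors deposited a log2 value for each probe set, and the scale was inferred from their range. The submitters' processing notes name RMA, MAS5 and Affymetrix Expression Console, and the one that made these values is not stated there. The genome build is not given in the sources, so coordinates are those of RefSeq GRCm38.p6. If the deposited values were made by RMA, differences of dim genes may be understated. Of 22690 probe sets, 20380 had 1 gene symbol, and 127 of these belonged to the 74 members.

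FTY720 was compared with vehicle in limma 3.58.1 (R 4.3.3; lmFit and eBayes, no filter, no covariate), with Benjamini-Hochberg adjustment over 12393 genes. SE values and intervals are those of that fit, and SD values are between mice. The fit was tested on simulated data with known changes. All of these were larger than the estimate of any member, so that test does not cover changes of the members' size. The number of arrays limits the precision, and no scan date was used. The members, lists, tests and naming rule were chosen with earlier results of these data known. Named members were those without overlap, the 8 per direction of smallest unadjusted p, those with a probe set of opposite sign at an unadjusted p under 0.05, and Mrps18a, Mrps18b, Mrps18c, Mrpl12 and Mrps12, plus 2 genes per list. Alternatives are given at the end.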

Additional observations from a re-analysis of the deposited data

How the results depend on the processing

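No paired analysis was possible because the replicate numbers are not shared between the groups. Under 19 alternatives, 2 of them chosen after seeing the data (without vehicle 15 and 16 together, and without probe sets of suffix x or s), the count of members past an adjusted p of 0.05 stayed at 0, and the lowest adjusted p of any member was 0.431. The cause of the changes that follow was not tested. Members above 0 numbered 33 to 51 (36 to 51 when 1 mouse was left out), 35 of 59 with probe sets of no suffix only and 42 of 71 without suffixes x and s, and the median difference ran from -0.0115 with the Gapdh covariate to 0.0337 (-0.0033 to 0.0337 when 1 mouse was left out). Members higher at an unadjusted p under 0.05, 2 in the report, were 1 after quantile normalization, with centring on brighter genes, with the mean of probe sets, with a variance trend, without suffixes x and s and without vehicle 15 and 16, 0 with probe sets of no suffix only and with the Gapdh covariate, and 1 to 3 when 1 mouse was left out. Members lower, 1 in the report, were 2 without dim genes and with a variance trend, 0 with the Gapdh covariate and without vehicle 15 and 16, and 0 to 2 when 1 mouse was left out. Members higher without overlap, 3 in the report, were 1 with probe sets of no suffix only and 3 to 9 when 1 mouse was left out (9 without vehicle 14). All probe sets of Mrps23 and Mrps7 have the suffix a, so both genes were absent from the setting with no suffix rather than changed by it. Members lower without overlap, 1 in the report, were 3 after quantile normalization and centring, 2 with the mean of probe sets, 4 without vehicle 15 and 16, and 1 to 5 when 1 mouse was left out (5 without vehicle 13). With fewer mice, groups separate more easily in any gene. Shares of all genes without overlap are not given for these settings, so those counts do not describe the family alone. Genes at an unadjusted p under 0.05 in limma, in either direction, were 823 of all genes with 8 mice. They were 890 without vehicle 15, 712 without vehicle 16, 706 without both and 505 with the Gapdh covariate.

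The sign turned for these genes among those named by the rule or printed with a difference. With probe sets of no suffix only, the difference was -0.0858 for Mrpl38, 0.0339 for Mrps9, -0.1566 for Mrpl17, 0.1208 for Mrpl51 and 0.0815 for Rps20, with the same values for Mrpl38 and Rps20 without suffixes x and s. With the mean of probe sets it was -0.0652 for Mrpl17 and 0.0740 for Mrpl51. With the Gapdh covariate it was -0.0030 for Mrpl17, -0.0391 for Mrps18a, -0.0305 for Mrpl12, -0.0359 for Gadd45gip1 and -0.1380 for Neurod6. When 1 mouse was left out it ran from -0.0141 (without vehicle 16) to 0.0733 for Mrpl17, from -0.0018 (without vehicle 16) to 0.0578 for Mrpl12, from -0.0131 (without FTY720 4) to 0.0334 for Mrps18a, from -0.0544 to 0.0036 (without vehicle 14) for Mrpl13 and from -0.0139 (without FTY720 6) to 0.1663 for Neurod6. Without vehicle 15 and 16 it was -0.0129 for Mrpl17, -0.0218 for Mrpl12, -0.0081 for Mrpl14, 0.0079 for Mrps21, -0.0148 for Mrrf, 0.0313 for Ppp1r1b and -0.0624 for Neurod6, which was also -0.0370 with array weights. With 4 mice per group, the 95% interval of the difference covered 0 for 71 of 74 members.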
